A study of Mus musculus with 9 samples.

Results

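Alcam and 7 related cell adhesion molecules of the immunoglobulin superfamily were followed in cells sorted from the hypaxial part of mouse interlimb somites. The dissection aimed at the dermomyotome, but the GFP- cells sorted from it hold other cell types. The genes were Alcam, Mcam, Bcam, Ncam1, Nrcam, L1cam, Cadm1 and Vcam1. Together they had 27 probe sets on the Affymetrix array, each annotated to 1 symbol, out of 45037 probe sets tested and 18193 named genes. Alcam was chosen by its measured rise in PAX3-FKHR/GFP against GFP/+ cells on these same arrays, and the other 7 genes were added with results of that comparison known. Differences between PAX3-FKHR/GFP and GFP/+ cells are therefore given as a description of these genes, without a test. Differences between GFP/+ and GFP- cells were tested. That comparison uses the same GFP/+ arrays as the one that chose Alcam, so the p-values of Alcam are not independent of its choice. The same limit holds for the other 7 genes, as they were added with results on those arrays known.

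There were 3 groups of 3 arrays, all from embryos at E9.5. Pax3 PAX3-FKHR/GFP embryos carry a GFP coding sequence at 1 Pax3 allele, and at the other a conditional PAX3-FKHR-IRESnlacZ sequence, recombined by a PGK-Cre transgene, which is active very broadly and not in the somite alone. These embryos have no intact Pax3 allele, and their GFP+ cells are called PAX3-FKHR/GFP cells. The fusion protein joins the DNA binding part of PAX3 to the activation domain of FKHR. Pax3 GFP/+ embryos have the GFP allele and an intact Pax3 allele, and their GFP+ cells are called GFP/+ cells. GFP- cells, without fluorescence, came from the same dissected tissue. No Pax3 genotype is given for them in the labels. The study's statistical methods place them in Pax3 GFP/+ embryos, whereas its list of hybridized groups names Pax3 +/+ embryos. The Pax3 lines were kept on a mixed C57 BL6/DBA2 background, tissue was pooled over embryos of a genotype, and a protocol field of the labels speaks of forelimb buds where the title, source and tissue give somites.

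Immunoglobulin-type adhesion molecules span the cell membrane and hold cells together through domains folded like those of antibodies. Some bind their own kind on the next cell, others bind integrins, laminins or other members of the superfamily, and many are linked to the actin or spectrin skeleton inside the cell. Alcam, also called CD166, binds itself and the lymphocyte receptor CD6. Mcam (CD146) and Bcam (the Lutheran antigen, a receptor for laminins that hold the alpha 5 chain) resemble it in their arrangement of domains. Ncam1, L1cam and Nrcam are best known from growing axons, and Ncam1 is also found on embryonic muscle. Cadm1 belongs to the nectin-like molecules, and Vcam1 is a ligand of alpha 4 integrins.

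The deposited values are log2 RMA (Robust Multichip Analysis) values, in which 1 unit is a doubling. The median log2 value of an array lay between 4.64 and 4.68, arrays of a group correlated at 0.996 to 0.998 over probe sets, and 8 of the 27 member probe sets lay below the median on all 9 arrays. Only 3 arrays per group limit the precision. Pax3, the targeted gene, had log2 values of 8.25, 8.31 and 8.30 in PAX3-FKHR/GFP cells, 9.06, 9.29 and 9.24 in GFP/+ cells and 4.48, 4.82 and 4.20 in GFP- cells in its brightest probe set. GFP- cells were thus low, as a sort by Pax3-GFP gives, whereas over the 3 Pax3 probe sets PAX3-FKHR/GFP cells, which have no intact allele, still stood at 53.2 to 57.8% of GFP/+ cells. Where these probe sets lie relative to the replaced sequence was not examined, and whether they also read the fusion transcript was not tested, so they do not check that genotype. Of 11 dermomyotome markers 10 were higher in GFP/+ than in GFP- cells. A probe set or gene was called when its adjusted p by limma was under 0.05 and its log2 difference was at least 0.5 either way. Errors after ± are standard errors of a difference between groups of n = 3 unless SD is named.

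The Alcam gene lies on the minus strand of chromosome 16 (chr16:52248996-52453081 in GRCm38.p6). The 250 bases before its start site, from the RefSeq annotation of that build (chr16:52453082-52453331, read on the minus strand), are shown because Alcam is the gene on which the results turn and because they hold a match to the core of the sequence bound by the paired domain of Pax proteins, GTCACGC, which is in capitals.

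Alcam, upstream of the start site: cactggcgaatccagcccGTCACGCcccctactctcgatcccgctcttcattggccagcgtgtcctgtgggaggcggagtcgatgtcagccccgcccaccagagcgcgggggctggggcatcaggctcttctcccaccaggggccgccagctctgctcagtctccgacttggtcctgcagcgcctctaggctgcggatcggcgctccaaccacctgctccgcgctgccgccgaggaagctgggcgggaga

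The match begins at position -232 counted from the start site. Among promoters of 300 bases (250 before and 50 after the start) 2.09% of 32851 held GTCACGC on either strand. A homeodomain palindrome, TAAT followed after 2 bases by ATTA, was held by 0.39%, and the forkhead motif GTAAACA by 3.65%. The search covered 6 promoter entries of 5 of the 8 genes (Alcam, Mcam, Bcam, Nrcam and L1cam), and the Alcam match was the only one found in them for these 3 motifs. The motifs were picked from general knowledge, the single match overlaps no other, and the arrays do not measure binding. Mcam, Cadm1 and Ncam1 all lie on chromosome 9, and the lowest positions of these genes in the same build are 44134658, 47530170 and 49502129.

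Alcam was low in GFP/+ cells and high in both other groups. Its brightest probe set, 1426301_at, had log2 values of 7.50, 7.74 and 7.42 in PAX3-FKHR/GFP cells, 5.35, 5.60 and 5.27 in GFP/+ cells and 7.23, 7.66 and 7.23 in GFP- cells. All 3 GFP/+ arrays lay far below the other 6, and the PAX3-FKHR/GFP and GFP- arrays overlapped. The PAX3-FKHR/GFP level was 4.43-fold that of GFP/+ cells (log2 difference 2.15 ± 0.11). The GFP/+ level was 25.6% of that of GFP- cells (95% interval 20.9 to 31.2%), a log2 difference of -1.97 ± 0.13 (limma, adjusted p = 4.89e-06).

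The second probe set, 1437467_at, had 7.08, 7.20 and 7.18 in PAX3-FKHR/GFP cells, 5.10, 5.19 and 5.06 in GFP/+ cells and 7.22, 7.16 and 7.23 in GFP- cells (log2 values). Its GFP/+ arrays again lay far below the other 6, with a smaller spread within groups, a 4.10-fold higher level with PAX3-FKHR (2.04 ± 0.083) and a GFP/+ level at 23.5% of that of GFP- cells (21.1 to 26.3%, adjusted p = 3.98e-08). Probe set 1437466_at had 5.93, 6.02 and 6.06 in PAX3-FKHR/GFP cells, 4.38, 4.19 and 4.11 in GFP/+ cells and 6.20, 6.18 and 6.23 in GFP- cells. Here the PAX3-FKHR/GFP arrays did not overlap the GFP- arrays and stood at 87.2% of them (77.4 to 98.1%).

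Probe set 1426300_at showed the smallest difference of the 4 that changed. Its log2 values were 6.44, 7.04 and 6.65 in PAX3-FKHR/GFP cells, 5.15, 5.28 and 4.95 in GFP/+ cells and 6.33, 6.83 and 6.57 in GFP- cells, that is 3.00-fold higher with PAX3-FKHR and at 36.6% of GFP- cells in GFP/+ cells (29.9 to 44.7%, adjusted p = 5.19e-05). In this probe set and in 1426301_at, which share an accession in the platform annotation, replicate 2 was the highest array of each of the 3 groups. The last Alcam probe set, 1443086_at, lay below the array median on every array, with group means of 3.62 ± 0.23 in PAX3-FKHR/GFP cells, 3.53 ± 0.02 in GFP/+ cells and 3.57 ± 0.14 in GFP- cells (SD, n = 3). Its groups overlapped (PAX3-FKHR/GFP minus GFP/+ 0.09 ± 0.11, GFP/+ minus GFP- -0.04 ± 0.085, adjusted p = 0.834).

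**Figure D1:**
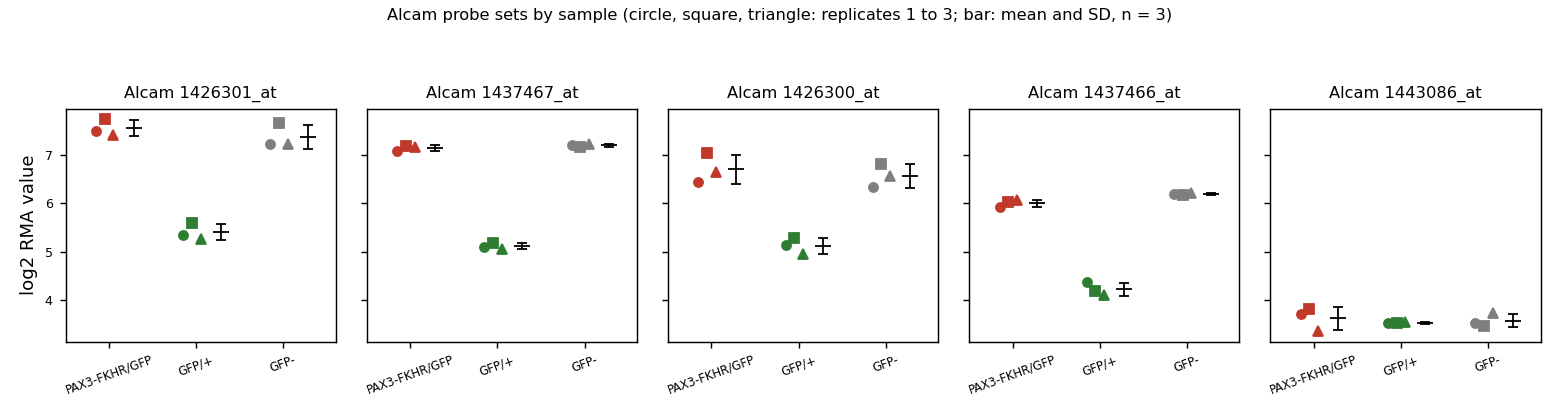
Log2 RMA value (y axis) of the 5 Alcam probe sets in every array, with groups from left to right PAX3-FKHR/GFP, GFP/+ and GFP- (circle, square and triangle for replicates 1, 2 and 3), bars giving the mean and SD (n = 3). In 4 probe sets the GFP/+ arrays lie 1.45 to 2.09 log2 units below GFP- cells in their means, and PAX3-FKHR/GFP arrays lie near GFP- cells; the dim 1443086_at shows no such difference.

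PAX3-FKHR/GFP and GFP- cells differed little in Alcam. The log2 difference of PAX3-FKHR/GFP minus GFP- cells was 0.18 (95% interval -0.10 to 0.45), -0.05 (-0.21 to 0.11), 0.13 (-0.21 to 0.47) and -0.20 (-0.37 to -0.03) in 1426301_at, 1437467_at, 1426300_at and 1437466_at. These comparisons share arrays, so that the fall in GFP/+ against GFP- cells and the higher level with PAX3-FKHR both rest on the same 3 GFP/+ arrays. Choosing Alcam by the higher level favours low values on those arrays, so the adjusted p-values above are not independent of the choice.

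GFP- cells hold other cell types of the dissected tissue, and the summed signals of 4 lists of their markers were lower in both GFP+ groups, though not every marker was called (in GFP/+ against GFP- cells 6 of 9 ectoderm, 9 of 12 endothelial, 7 of 7 erythroid and 6 of 10 mesoderm markers were lower). The summed signal of 9 surface ectoderm and epithelium markers ranged from 456 to 519 in PAX3-FKHR/GFP cells, 459 to 487 in GFP/+ cells and 3385 to 3584 in GFP- cells. That of 12 endothelial markers ranged from 1154 to 1194, from 1139 to 1209 and from 1982 to 2064 in the same order of groups. For 7 primitive erythroid markers the ranges were 1986 to 2295, 1438 to 1515 and 36317 to 36568, and for 10 lateral and intermediate mesoderm markers 710 to 900.4, 669 to 684 and 2233 to 2294. Between PAX3-FKHR/GFP and GFP/+ cells 0 of the 9 ectoderm markers were called (limma; 3 at an unadjusted p under 0.05, 0 by the local pooled error test) and 0 of the 12 endothelial markers (3 at an unadjusted p under 0.05, and 1, Cd34, higher by the local pooled error test). Of the erythroid markers 1 was higher (Hbb-y, 0.65, adjusted p = 0.0041), and of the mesoderm markers 1 (Prrx1, 0.65, adjusted p = 0.0127). Hbb-bh1 was just under the fold limit (0.4975, limma, adjusted p = 0.0115), and the summed erythroid signals of the GFP+ groups did not overlap. The neural and leukocyte lists, taken up below, also had lower sums in both GFP+ groups than in GFP- cells. Of 12 neural markers 8 were lower and 1 was higher in GFP/+ than in GFP- cells. With PAX3-FKHR 3 of the 12 were higher than in GFP/+ cells (Neurog1 1.11, Elavl4 0.84 and Isl1 0.805) and 1 was lower (Neurog2, -0.78). The part of neural cells in the Alcam values was not tested. Whether fewer cells of a type or less RNA per cell lies behind a lower value cannot be told apart in such pooled samples.

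Mcam and Bcam, the genes closest to Alcam in domain arrangement, showed no difference past the limits. The single Mcam probe set, 1416357_a_at, had log2 values of 5.78, 5.81 and 5.98 in PAX3-FKHR/GFP cells, 5.81, 6.11 and 5.90 in GFP/+ cells and 5.74, 5.81 and 5.66 in GFP- cells. All 3 groups overlapped, and the GFP/+ level was 115% of that of GFP- cells (95% interval 99.7 to 133%, adjusted p = 0.266). The single Bcam probe set, 1424791_a_at, had 4.47, 4.62 and 4.77 in PAX3-FKHR/GFP cells, 4.65, 4.64 and 4.69 in GFP/+ cells and 4.94, 4.81 and 4.79 in GFP- cells, close to the array median throughout. In both groups of GFP+ cells it lay just below the GFP- arrays without overlap (GFP/+ at 88.0% of GFP-, 77.7 to 99.6%, adjusted p = 0.238). With PAX3-FKHR the level was 94.4% of that of GFP/+ cells for Mcam (80.7 to 110%) and 97.0% for Bcam (83.2 to 113%).

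Ncam1, which binds itself between cells and can carry polysialic acid, was highest in GFP/+ cells. In its brightest probe set, 1426864_a_at, log2 values were 9.52, 9.66 and 9.86 in PAX3-FKHR/GFP cells, 9.90, 10.03 and 9.98 in GFP/+ cells and 9.34, 9.31 and 9.5 in GFP- cells. The 3 groups did not overlap, with PAX3-FKHR/GFP cells in the middle. GFP/+ cells were 1.5-fold above GFP- cells (log2 difference 0.59 ± 0.065, adjusted p = 0.000234), and PAX3-FKHR/GFP cells were at 81.7% of GFP/+ cells (70.4 to 94.7%).

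Of the 7 Ncam1 probe sets 2 more were called higher in GFP/+ than in GFP- cells. In 1426865_a_at log2 values were 6.23, 6.46 and 6.68 in PAX3-FKHR/GFP cells, 7.02, 6.96 and 6.58 in GFP/+ cells and 6.04, 5.89 and 6.25 in GFP- cells, and GFP/+ cells were 1.73-fold above GFP- cells (adjusted p = 0.00326). PAX3-FKHR/GFP cells overlapped both others here (-0.39 ± 0.14 against GFP/+ cells). The third, 1439556_at, was below the median of all arrays and just past the fold limit (0.50 ± 0.095, adjusted p = 0.00787), and was not called without GFP/+ replicate 1 or 2 or GFP- replicate 1 or 3 (log2 difference 0.43 to 0.48). The other 4 were not called, with GFP/+ minus GFP- differences of 0.45 (1425126_at), 0.31 (1450437_a_at), 0.15 (1421966_at) and -0.002 (1450438_at).

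L1cam, an axonal molecule that binds itself and is linked to ankyrin, ran opposite to Alcam. Probe set 1450435_at had log2 values of 7.19, 7.11 and 7.17 in PAX3-FKHR/GFP cells, 7.92, 8.04 and 7.71 in GFP/+ cells and 6.82, 6.91 and 6.90 in GFP- cells. The groups did not overlap, GFP/+ cells being highest and PAX3-FKHR/GFP cells a little above GFP- cells. GFP/+ cells were 2.02-fold above GFP- cells (1.01 ± 0.086, adjusted p = 3.46e-05). With PAX3-FKHR the level was 60.4% of that of GFP/+ cells (52.3 to 69.7%, log2 difference -0.73 ± 0.094), and 122% of that of GFP- cells (109 to 136%). The other L1cam probe set, 1421958_at, lay between 3.08 and 3.26 on all 9 arrays, below the array median, and was not called (GFP/+ minus GFP- -0.04 ± 0.064, adjusted p = 0.776).

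Muscle and neural marker lists also moved in PAX3-FKHR/GFP against GFP/+ cells. Of 11 differentiated muscle markers 9 were lower (limma), where 0.715% of all genes were. The summed signal of the 11 ranged from 1364 to 1573 in PAX3-FKHR/GFP cells, 3111 to 3432 in GFP/+ cells and 1271 to 1353 in GFP- cells. Such a sum is weighted to bright genes, and Actc1 had a log2 mean of 9.94 in GFP- cells. Against GFP- cells 6 of the 11 were higher in PAX3-FKHR/GFP cells and 0 lower (limma), where 1.99% and 3.36% of all probe sets were. Those shares are over probe sets, whereas each marker is a gene read from its brightest probe set, so the measures are not alike. In PAX3-FKHR/GFP against GFP/+ cells 3 of 12 neural markers were higher (Neurog1, Elavl4 and Isl1) and 1 was lower (Neurog2). The summed signals of the 12 were 1728 to 1981 in PAX3-FKHR/GFP cells, 1548 to 1688 in GFP/+ cells and 3234 to 3336 in GFP- cells. Of 9 neural crest markers 1 was higher, with 3551 to 4232, 3132 to 3274 and 1297 to 1344. The part of these cells in the Alcam, L1cam and Ncam1 values was not tested.

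Nrcam, of the L1 family like L1cam, was low in both GFP+ groups. Probe set 1434709_at had log2 values of 6.60, 6.76 and 6.64 in PAX3-FKHR/GFP cells, 6.45, 6.56 and 6.36 in GFP/+ cells and 7.64, 7.36 and 7.47 in GFP- cells. All GFP+ arrays lay below all GFP- arrays, and PAX3-FKHR/GFP arrays just above GFP/+ arrays. GFP/+ cells were at 49.0% of GFP- cells (42.6 to 56.2%, adjusted p = 3.92e-05), and PAX3-FKHR/GFP cells at 115% of GFP/+ cells (101 to 132%). Probe set 1430583_at showed the same order, at 55.3% in GFP/+ against GFP- cells (46.7 to 65.4%, adjusted p = 0.000608) and 122% with PAX3-FKHR against GFP/+ cells (104 to 143%). The remaining pair, 1443281_at and 1458833_at, lay below the array median on all arrays and had GFP/+ minus GFP- differences of -0.002 and 0.03.

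Cadm1, a nectin-like molecule that binds itself and other nectin-like proteins, was higher in both GFP+ groups than in GFP- cells. Its brightest probe set, 1417377_at, had log2 values of 11.12, 11.37 and 11.49 in PAX3-FKHR/GFP cells, 11.31, 11.39 and 11.38 in GFP/+ cells and 10.40, 10.42 and 10.42 in GFP- cells. The GFP+ groups overlapped each other and lay well above GFP- cells. GFP/+ cells were 1.92-fold above GFP- cells (0.94 ± 0.045, adjusted p = 5.32e-07), and PAX3-FKHR/GFP cells were at 97.9% of GFP/+ cells (83.4 to 115%). Probe sets 1417376_a_at (1.92-fold, adjusted p = 3.41e-06) and 1417378_at (1.68-fold, adjusted p = 0.000109) were also higher in GFP/+ than in GFP- cells, and the dimmer 1431611_a_at was just under the fold limit (0.42 ± 0.076, adjusted p = 0.00593). With PAX3-FKHR these 3 were at 104% (91.5 to 119%), 116% (101 to 134%) and 106% (91.7 to 122%) of GFP/+ cells.

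Vcam1, the ligand of alpha 4 integrins, was lower in GFP/+ than in GFP- cells in its brightest probe set only. In 1448162_at log2 values were 5.68, 5.96 and 5.96 in PAX3-FKHR/GFP cells, 5.88, 5.64 and 5.37 in GFP/+ cells and 6.27, 6.24 and 6.15 in GFP- cells. The GFP+ groups overlapped, and both lay below GFP- cells. GFP/+ cells were at 66.4% of GFP- cells (55.3 to 79.8%, adjusted p = 0.0109). That call was lost when GFP/+ replicate 2 was left out (adjusted p = 0.0582), as it was when GFP- replicate 1 (0.0649) or 2 (0.0738) was, and leaving out GFP/+ replicate 3 put the difference under the fold limit (-0.46). The other Vcam1 probe sets, 1415989_at and 1451314_a_at, differed by 0.08 and 0.0004 between GFP/+ and GFP- cells. With PAX3-FKHR 1448162_at was at 118% of GFP/+ cells (96.2 to 145%).

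**Figure D2:**
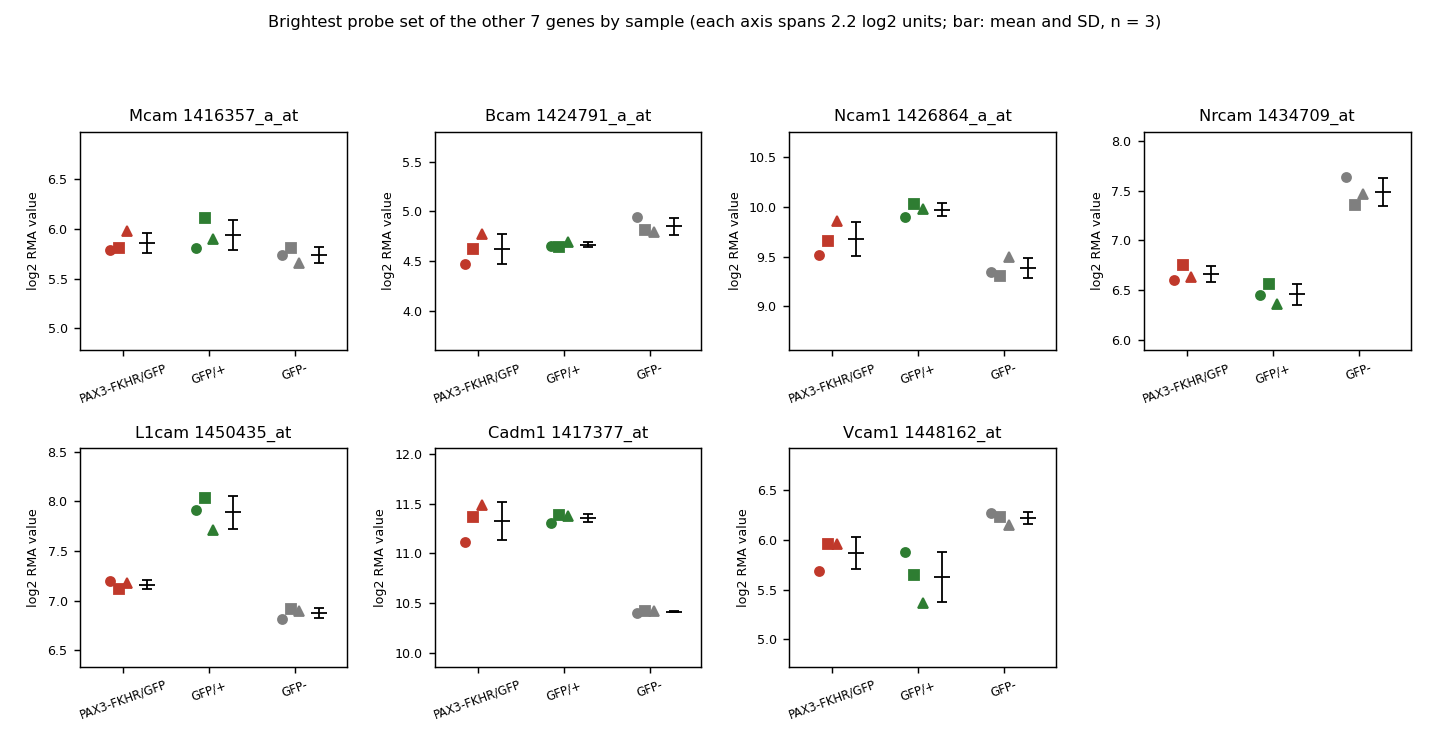
Log2 RMA value (y axis, of equal span in each panel) of the brightest probe set of Mcam, Bcam, Ncam1, Nrcam, L1cam, Cadm1 and Vcam1 in every array, groups running from PAX3-FKHR/GFP through GFP/+ to GFP-, bars giving the mean and SD (n = 3). L1cam with PAX3-FKHR stands at 60.4% of its GFP/+ level, whereas the GFP+ groups of Cadm1 overlap and both lie above GFP- cells.

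Counted over all 27 probe sets, 7 were called higher and 7 lower in GFP/+ than in GFP- cells, and 13 were not called. Over all tested probe sets 1.42% were called higher and 3.24% lower. The higher ones were 3 of Ncam1, 3 of Cadm1 and 1 of L1cam, and the lower ones 4 of Alcam, 2 of Nrcam and 1 of Vcam1, so that probe sets of a gene, which share their transcript, never ran opposite ways among those called. The median log2 difference of the 27 was 0.03, against 0.02 over all probe sets. At a log2 limit of 1, 1 was higher (L1cam) and 5 were lower (Alcam and Nrcam). In PAX3-FKHR/GFP against GFP/+ cells 4 of the 27 passed the limits upwards, all of Alcam, and 1 downwards, of L1cam, where 0.884% and 0.473% of all probe sets did so. These values chose the members, and nothing is read from their count. In PAX3-FKHR/GFP against GFP- cells, a comparison that shares its arrays with both others, the 4 Cadm1 probe sets passed upwards and 2 of Nrcam downwards (1.99% and 3.36% of all probe sets). Of these, Cadm1 1431611_a_at was under the fold limit when PAX3-FKHR/GFP replicate 2 (0.45) or GFP- replicate 2 (0.49) was left out, and Nrcam 1430583_at when GFP- replicate 3 was (-0.47). Ncam1 1426865_a_at passed upwards when PAX3-FKHR/GFP replicate 1 was left out (0.51).

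**Figure D3:**
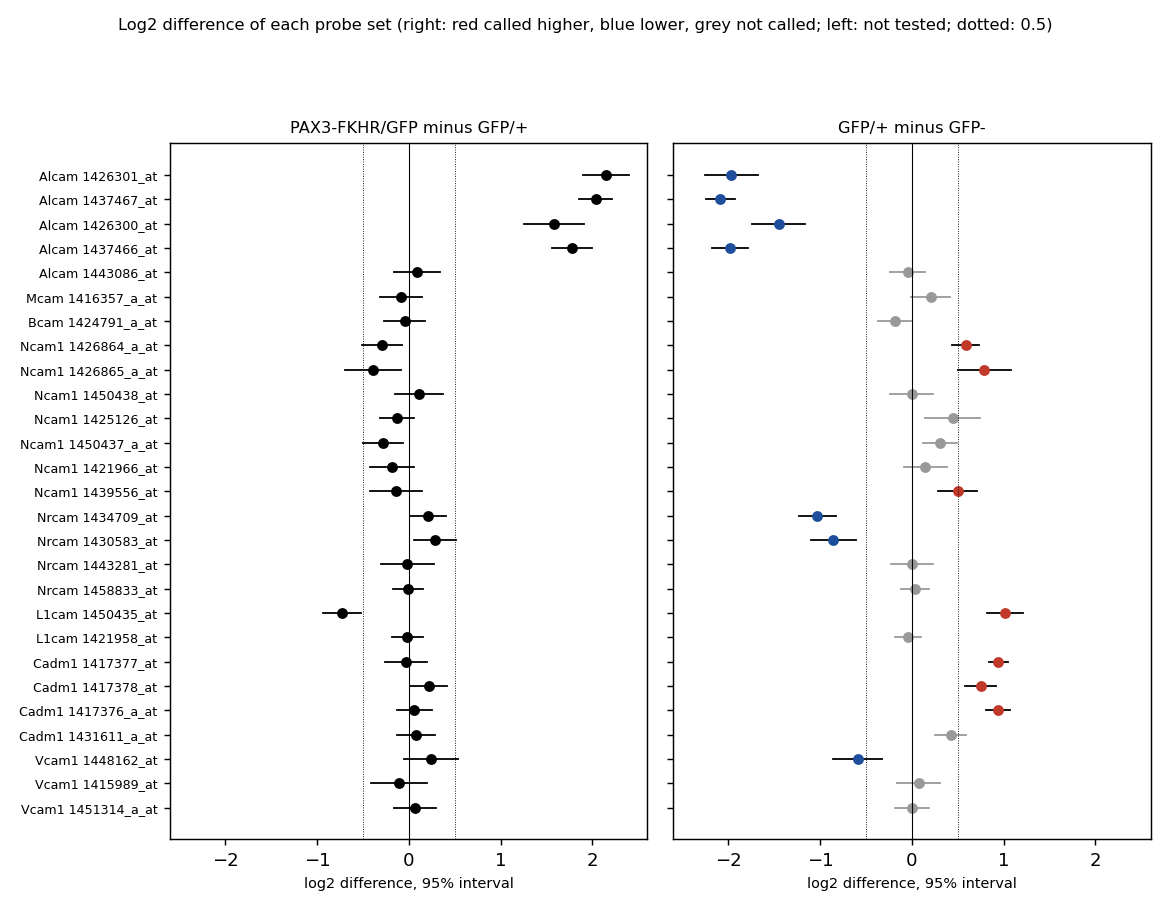
Log2 difference (x axis, with its 95% interval) of each of the 27 probe sets (rows) in PAX3-FKHR/GFP minus GFP/+ cells on the left and GFP/+ minus GFP- cells on the right; dotted lines mark 0.5. On the right red (higher) and blue (lower) points were called and grey ones were not, while the left carries no test and all its points are black. The 4 brighter Alcam probe sets lie from 1.58 to 2.15 on the left, the values for which Alcam was chosen, and from -2.09 to -1.45 on the right, and L1cam 1450435_at lies at -0.73 and 1.01.

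Partners, skeletal linkers and processing enzymes of these molecules were read from 29 genes, each from its brightest probe set. With PAX3-FKHR 4 rose and 0 fell against GFP/+ cells (limma; 5 at an unadjusted p under 0.05, and 4 and 0 by the local pooled error test), where 1.31% and 0.715% of all genes did. Their median log2 difference was 0.07, against -0.002 over all genes. The 4 that rose were Gdnf, Gfra1, St8sia2 and St8sia4, each known to act on or through Ncam1 among other roles. The list was chosen with earlier results of these data known. Its counts and adjusted p-values are therefore a description and not an independent test.

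Gdnf, a growth factor that can signal through Ncam1, was lowest in GFP/+ cells, as Alcam was. Its log2 values were 5.65, 5.65 and 5.54 in PAX3-FKHR/GFP cells, 3.71, 3.96 and 3.998 in GFP/+ cells and 6.41, 6.34 and 6.42 in GFP- cells. The groups did not overlap, and PAX3-FKHR/GFP cells lay below GFP- cells (-0.78 ± 0.078, limma, adjusted p = 4.79e-05), a difference called in no Alcam probe set. The GFP/+ arrays lay below the array median, and as no detection calls were used it is not known whether Gdnf was above background there, so that log2 differences of the values are given and no fold. Gdnf was higher with PAX3-FKHR than in GFP/+ cells (1.72 ± 0.10, adjusted p = 1.07e-05), and lower in GFP/+ than in GFP- cells (-2.50 ± 0.094, adjusted p = 8.1e-08). Gfra1, the co-receptor that binds Gdnf, rose 1.56-fold with PAX3-FKHR (0.64 ± 0.11, adjusted p = 0.0164), but that call needed every array other than PAX3-FKHR/GFP replicate 1 (adjusted p 0.0557 to 0.121 when another was left out).

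St8sia2 and St8sia4 encode the polysialyltransferases that add polysialic acid to Ncam1, a sugar chain that weakens its adhesion. St8sia4 had log2 values of 8.84, 9.04 and 9.23 in PAX3-FKHR/GFP cells, 8.41, 8.29 and 8.16 in GFP/+ cells and 7.63, 7.49 and 7.54 in GFP- cells, with no overlap between groups. It rose 1.68-fold with PAX3-FKHR (0.75 ± 0.11, adjusted p = 0.00446), and was 1.66-fold higher in GFP/+ than in GFP- cells (0.73 ± 0.076, adjusted p = 0.000146). St8sia2 had 7.88, 7.97 and 8.09 in PAX3-FKHR/GFP cells, 7.41, 7.49 and 7.23 in GFP/+ cells and 7.29, 7.19 and 7.18 in GFP- cells, and rose 1.52-fold with PAX3-FKHR (0.60 ± 0.094, adjusted p = 0.00768). GFP/+ and GFP- arrays overlapped in St8sia2 (0.16 ± 0.080, adjusted p = 0.324). Leaving out PAX3-FKHR/GFP replicate 2 ended both calls, as did leaving out replicate 3 of GFP/+ (adjusted p 0.0556 to 0.0725), and without GFP/+ replicate 2 St8sia4 was not called (0.0533). Of the 29 genes 1, 1 and 2 rose in these cases, and Gdnf was called whichever array was left out.

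**Figure D4:**
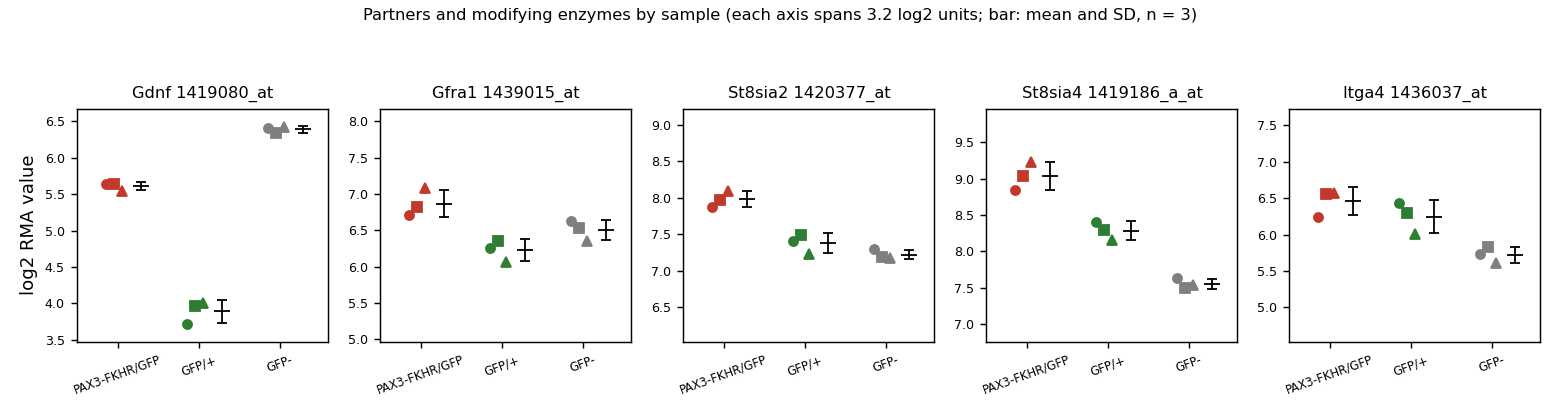
Log2 RMA value (y axis, of equal span in each panel) of Gdnf, Gfra1, St8sia2, St8sia4 and Itga4 in every array, groups running from PAX3-FKHR/GFP through GFP/+ to GFP-, bars giving the mean and SD (n = 3). Gdnf is lowest in GFP/+ cells, as Alcam is, while both polysialyltransferases are highest with PAX3-FKHR (1.52-fold and 1.68-fold above GFP/+ cells).

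Between GFP/+ and GFP- cells 3 of the 29 genes were higher and 3 lower, with 1.92% and 5.05% of all genes called, and a median of -0.05, against 0.008 over all genes. Cask, a scaffold protein that binds nectin-like molecules (0.61 ± 0.068, adjusted p = 0.000244), and Itga4, the integrin subunit that binds Vcam1 (0.52 ± 0.11, adjusted p = 0.0173), were higher in GFP/+ cells with St8sia4. The Itga4 call needed every array other than GFP/+ replicate 3 (adjusted p 0.0552 to 0.0963). Itgb3 (-1.81 ± 0.11) and Itgav (-0.67 ± 0.063), which form an integrin that binds L1cam, were lower with Gdnf. The log2 mean of Itgb3 was 3.40 in GFP/+ cells, below the array median, so that the limit given for Gdnf holds there too. Itgb1, the partner of Itga4 (0.16 ± 0.069), Lama5, the laminin chain bound by Bcam (-0.38 ± 0.073), and Cd6 (0.05 ± 0.11) were not called. With PAX3-FKHR against GFP/+ cells Itga4 (0.21 ± 0.13), Itgb1 (0.03 ± 0.11), Lama5 (0.03 ± 0.084) and Cd6 (0.11 ± 0.096) were not called either.

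Beyond the 8 genes, 48 further immunoglobulin-type adhesion genes were read in the same way. None was called in PAX3-FKHR/GFP against GFP/+ cells (0 of 48 by limma, 10 at an unadjusted p under 0.05, 0 by the local pooled error test). Of all genes 1.31% were called higher and 0.715% lower. At such shares few calls would come among 48 genes, and nothing is read from the 0. Their median log2 difference was -0.02, against -0.002 over all genes. The largest difference was that of Emb, which encodes embigin, just under the fold limit (0.49), and it was called without PAX3-FKHR/GFP replicate 1 (0.55, adjusted p = 0.0201). Chl1 (-0.16 ± 0.12) and Nfasc (-0.31 ± 0.10), of the L1 family, and Ncam2 (0.02 ± 0.11) were not called. Between GFP/+ and GFP- cells 2 of the 48 were higher and 9 lower, with 1.92% and 5.05% of all genes called. Their median was -0.05, against 0.008 over all genes.

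The 2 with the largest difference between GFP/+ and GFP- cells were both lower. Mpzl2, also called Eva1 and found in epithelia, was at a log2 mean of 3.64 in GFP/+ cells, where the same limit holds, and 6.23 in GFP- cells (-2.59 ± 0.081, adjusted p = 2.25e-08). F11r, junctional adhesion molecule A of epithelial tight junctions, was at 7.65 and 9.76 (-2.11 ± 0.065, adjusted p = 1.93e-08). Icam2 (-1.24 ± 0.10), Icam4 (-1.06 ± 0.080), Esam (-0.90 ± 0.071) and Emb (-0.88 ± 0.059) were lower too, and Icam2 and Esam are known from endothelium. Icam4, at a log2 mean of 3.77 in GFP/+ cells, has the same limit as Mpzl2. The endothelial and ectoderm markers that were lower in the same comparison are counted above, and their part in these values was not tested. Ntm, a GPI-anchored molecule of neurons (0.78 ± 0.12, adjusted p = 0.00232), and Kirrel3, a nephrin-like molecule (0.62 ± 0.11, adjusted p = 0.0052), were the 2 that were higher. Chl1 was at the limit (-0.50 ± 0.11, adjusted p = 0.0159) and its call was lost without replicate 2 of GFP/+ cells or replicate 2 or 3 of GFP- cells (adjusted p 0.0532 to 0.0962). Its log2 means, 3.25 in GFP/+ and 3.75 in GFP- cells, were below the array median.

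Being lower in GFP/+ than in GFP- cells and higher with PAX3-FKHR than in GFP/+ cells, past the limits both times, was a pattern of 104 of 45037 probe sets (0.231%) and, read from the brightest probe set, of 63 of 18193 genes. Among the 27 probe sets the 4 brighter ones of Alcam had it. As both comparisons rest on the same GFP/+ arrays, this is a description only. The 5 genes whose log2 values over the 9 arrays were most like those of 1426301_at, among 1121 genes with a range of at least 1 log2 unit, were Hoxa11 (Pearson r = 0.979), Ap1s3 (0.972), Onecut2 (0.964), Astn1 (0.957) and Plagl1 (0.956). The 9 arrays fall into 3 groups, so that these values chiefly say that the genes shared the order of group means. Hoxa11 had group means of 6.66 in PAX3-FKHR/GFP cells, 5.03 in GFP/+ cells and 6.31 in GFP- cells, and Plagl1, a zinc finger gene expressed from the paternal allele, 12.30, 11.21 and 12.10.

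The remaining lists bear on what the sorted cells held. In GFP/+ against GFP- cells 9 of the 11 differentiated muscle markers and 7 of the 9 neural crest markers were higher and 0 lower, and 1 of the 12 neural markers was higher and 8 lower. Of 6 sclerotome markers 5 were higher in GFP/+ than in GFP- cells, and with PAX3-FKHR 1 was higher and 2 were lower than in GFP/+ cells. Of 8 leukocyte markers 1 was lower in GFP/+ than in GFP- cells, and 0 were called with PAX3-FKHR against GFP/+ cells (limma; 1 at an unadjusted p under 0.05, 0 by the local pooled error test). Of the 11 dermomyotome markers 4 were higher and 2, Pax3 among them, lower with PAX3-FKHR than in GFP/+ cells.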

How the data were processed

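GFP+ and GFP- cells sorted from pooled embryos at E9.5 were measured on Affymetrix mouse genome arrays after a two-cycle 3′ amplification. The values are deposited log2 values, which the authors made with RMA (background correction, quantile normalization, summary per probe set). The log base was taken from the range of the values, neither the RMA version nor which arrays were normalized jointly was stated in the sources used here, and the study's filter on absent calls was not applied. RMA cannot show a shift of all transcripts in a group.

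Of 45101 probe sets 64 Affymetrix controls were left out. The platform annotation gives 34945 of the rest 1 symbol, 932 several and 9160 none. Every probe set of the 8 genes was read separately, and other genes from the single-symbol probe set with the highest mean over 9 arrays. Names ending in _a_at mark probe sets shared by transcripts of a gene. Differences were fitted with limma 3.58.1 in R 4.3.3 (lmFit, eBayes with an intensity trend) on the 6 arrays of each comparison, as two-sided tests adjusted by Benjamini-Hochberg over the 45037 probe sets. The fit was tested on simulated data. The study's local pooled error test was rebuilt as an alternative. Other alternatives were no trend, a fit of all 9 arrays, a floor on dim probe sets, 2 further normalizations, a replicate block, leaving out each array, a log2 limit of 1 and the mean over probe sets.

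The members, lists and tests were chosen with earlier results of these data known. Lists of other immunoglobulin adhesion genes, of partners, linkers and enzymes, and of dermomyotome, differentiated muscle, endothelial, neural crest, neural, primitive erythroid, leukocyte, ectoderm, sclerotome and lateral or intermediate mesoderm markers came from general knowledge. Written symbols without a single-symbol probe set were not analysed here. All 8 genes are named. From the other adhesion genes and the partners, up to 6 called genes per direction with the largest difference are named, with Chl1, Nfasc, Ncam2, Itga4, Itgb1, Lama5, Cd6, St8sia2 and St8sia4, and the 5 genes most like Alcam. Emb and Cd34 were named after their values were seen in PAX3-FKHR/GFP against GFP/+ cells, and marker genes likewise. Promoter sequences and gene positions are from RefSeq on GRCm38.p6. The study calls the samples biological replicates, each from pooled tissue, and p-values measure the spread between such pools.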

Additional observations from a re-analysis of the deposited data

How the results depend on the processing

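Member probe sets had 12 to 14 calls in GFP/+ against GFP- cells under every alternative other than a log2 limit of 1, which left 6. For PAX3-FKHR/GFP against GFP/+ cells, whose values chose the members, no stability is read. No member probe set called in GFP/+ against GFP- cells changed direction under any alternative. At a log2 limit of 1 the count was 4 for the other adhesion genes and 2 for the partners in GFP/+ against GFP- cells (11 and 6 at the limit of 0.5 in the same fit). It was 1 for the partners in PAX3-FKHR/GFP against GFP/+ cells (4 at 0.5) and 1 for the members in PAX3-FKHR/GFP against GFP- cells (6 at 0.5). By the local pooled error test 2 of the other adhesion genes were higher and 7 lower in GFP/+ against GFP- cells. With only probe sets of a mean log2 value of at least 5, 6 of the other adhesion genes were called in GFP/+ against GFP- cells, as fewer were tested. With arrays centred on their medians 1 of them, Emb, was called in PAX3-FKHR/GFP against GFP/+ cells. Leaving out an array in turn gave 0 to 1 for these genes and 1 to 4 for the partners in that comparison, and 12 to 13 for the members in GFP/+ against GFP- cells. Same-numbered replicates showed no clear shared deviation (correlations of deviations -0.10 to 0.11). For GFP/+ with GFP- samples these were 0.009 to 0.094 with the same number and -0.092 to 0.033 with different numbers. Such small correlations cannot exclude that GFP/+ and GFP- samples of a number came from the same pool, so whether the numbers pair the samples is not known. With a replicate block the members had 14 calls in GFP/+ against GFP- cells, and no call among the other adhesion genes or the partners changed. With 3 arrays a group, differences near 0.5 are not settled, and dim probe sets say little on their transcripts.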
